A study of Homo sapiens with 4 samples.

Results

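The enzymes that supply deoxynucleotides for DNA synthesis were examined in IMR-32 cells after knockdown of NeuroD1. The members were 9 genes chosen by name, RRM1, RRM2, TYMS, TK1, DUT, DCK, SAMHD1, DCTPP1 and CTPS1, out of 60612 gene IDs in the count table, and each gene ID was matched to its symbol. All 9 passed the filter on low counts, as did 17537 genes in all. IMR-32 is a long-established cell line from a human neuroblastoma and carries amplified MYCN. The study compared 4 RNA sequencing libraries of whole cultures. Both groups carried a lentiviral short hairpin RNA under doxycycline control and received doxycycline at 1 µg/mL for 48 h. The hairpin targeted NeuroD1 in the 2 shNeuroD1 libraries and was the control hairpin in the 2 shControl libraries. The labels also call the control cells wild type or parental, and they leave unsaid which NeuroD1 hairpin was used. The study made 2 NeuroD1 hairpins, and the titles of the 2 shNeuroD1 libraries match their names. These libraries may thus carry different hairpins, in which case their spread, and each SE and p-value that rests on it, includes the difference between hairpins. Nothing in the labels says that the libraries of a group came from separate cultures, so the p-values measure the spread between these libraries, which may be technical.

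Deoxynucleotides are made mainly by ribonucleotide reductase, which turns ribonucleoside diphosphates into their deoxy forms. The enzyme pairs a large catalytic and regulatory subunit, RRM1, with a small radical-bearing subunit, RRM2, which is best known from cells in S phase. Thymidylate is made from dUMP by thymidylate synthase (TYMS) or salvaged from thymidine by thymidine kinase (TK1), while DUT hydrolyses dUTP and so keeps uracil out of DNA. Deoxycytidine kinase (DCK) salvages other deoxynucleosides, SAMHD1 and DCTPP1 break down deoxynucleoside triphosphates, and CTP synthase (CTPS1) feeds the cytidine branch.

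The promoters of several of these genes hold short motifs that many S-phase genes share. One of these, CCAAT, was no more common in the members than over all genes, by the share of windows given below. Stretches with such letters are shown here so that their spacing can be seen. RefSeq windows (GRCh38.p14) of 300 bases, 250 before and 50 after each transcript start, were searched on both strands. They covered 15 starts of the 9 genes. In the sequences, capitals mark CCAAT, the letters bound by NF-Y (ATTGG on the other strand), and the letters bound by E2F factors, TTCCCGC as well as the variants TTCGCGC, then also TTGGCGC, and finally TTGCCGC, each with its reverse complement. TTGGCGC read on the other strand can overlap a CCAAT, but no such overlap occurred in the members' windows. The RRM2 stretch, chr2:10122609-10122738 on the plus strand, ended 1 base before a transcript start and held 3 CCAAT boxes. The RRM1 stretch, chr11:4094535-4094684 on the plus strand, also ended 1 base before a start. The TYMS stretch was chr18:657484-657633 on the plus strand.
RRM2: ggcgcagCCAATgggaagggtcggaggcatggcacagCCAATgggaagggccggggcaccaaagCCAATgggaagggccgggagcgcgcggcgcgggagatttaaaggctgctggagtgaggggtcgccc
RRM1: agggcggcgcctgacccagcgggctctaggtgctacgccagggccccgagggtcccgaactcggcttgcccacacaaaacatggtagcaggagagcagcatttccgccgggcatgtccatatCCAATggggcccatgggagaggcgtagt
TYMS: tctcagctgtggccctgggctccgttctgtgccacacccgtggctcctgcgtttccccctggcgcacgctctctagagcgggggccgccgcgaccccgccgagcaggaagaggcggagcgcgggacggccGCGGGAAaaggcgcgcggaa

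Positions here are from RefSeq starts, and other transcripts can begin further upstream. A listed first exon of RRM2, chr2:10122328-10122897, covers the whole RRM2 stretch. In the deposited FPKM values, described below, it had 58.8 and 66.4 FPKM in shControl and 10.5 and 31.0 FPKM in shNeuroD1. The exon listed from the start used for the RRM2 positions, chr2:10122739-10123057, had 0.0051 to 0.602 FPKM. Shorter sites of 30 bases are given for 3 other members, and GENCODE 29 annotates all 30 bases of each as untranslated exon of some transcript. They lay at chr17:78187077-78187106 on the minus strand (TK1), chr15:48332151-48332180 on the plus strand (DUT) and chr20:36951736-36951765 on the minus strand (SAMHD1). SAMHD1 is shown because it had a pair of CCAAT boxes and was the member whose change did not pass the test.
TK1: ggctcgtgATTGGccagcacgccgtggttt
DUT: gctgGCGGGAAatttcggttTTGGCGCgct
SAMHD1: gcaggaggCCAATaggctgCCAATactcct

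CCAAT was found in 4 of the 9 members, RRM1, RRM2, TK1 and SAMHD1, and in 5 of the 15 windows. It was found in 34.6% of 35116 windows over all genes, so the members lay near that share. In RRM2 the first letters of the 3 printed boxes lay at positions -123, -93 and -66 from the RefSeq start. The window of another RRM2 start held a further box at -249. In TK1 the boxes lay at -77 and -46, in SAMHD1 at -49 and -38, and in RRM1 at -28. E2F letters were found in 6 members, RRM1, RRM2, TYMS, TK1, DUT and DCK, and in 6 of the 15 windows, against 13.0% of all windows. In TYMS the match began at -39, and in DUT the pair began at -42 and -26. The other matches began at -12 in TK1, at -223 in RRM1, at -192 in RRM2 and at -192, -88 and 21 in DCK. The RRM2 match was in the window of the other start, outside the printed stretch. The E-box CACGTG, bound by MYC proteins, was found in DCK and DCTPP1, in 2 of the 15 windows, against 7.3% of all windows. The E-boxes CAGATG and CAGCTG, which NeuroD1 can bind, were found in TYMS, DCK and CTPS1, in 3 of the 15 windows, against 29.8% of all windows. The match in CTPS1 lay before a start that had at most 0.0233 FPKM in any library. A match of letters is a description of sequence and does not show a site in use.

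**Figure D1:**
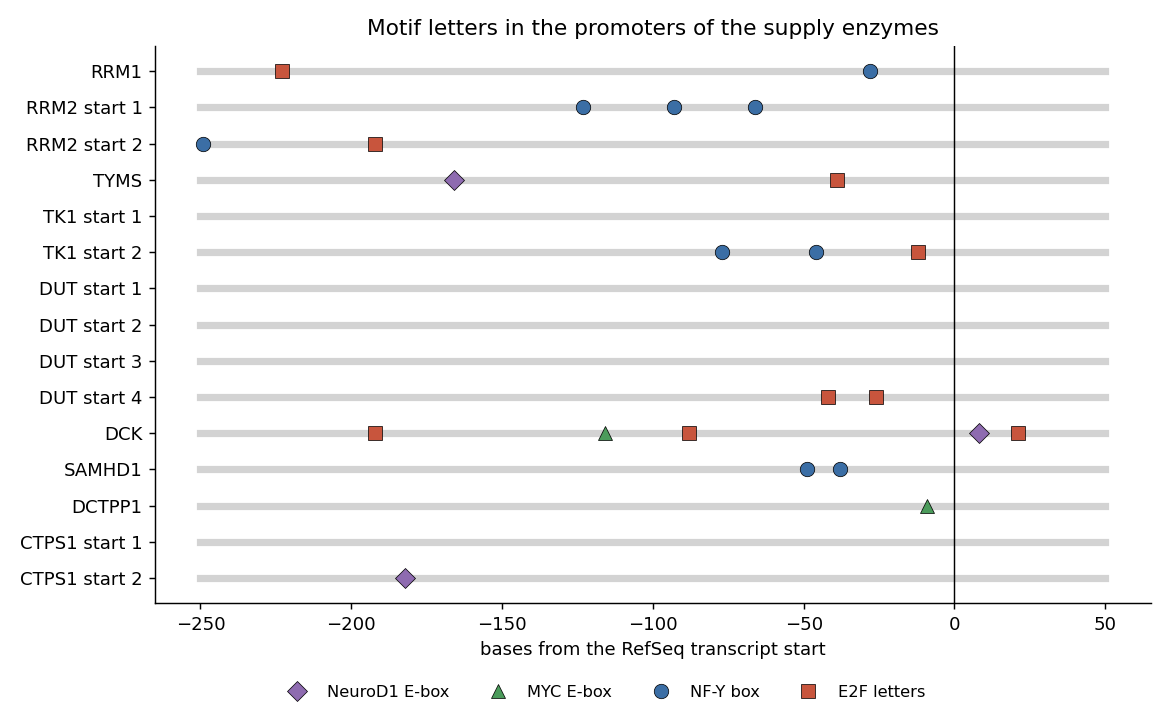
Matches to 4 motifs in the 15 RefSeq promoter windows of the 9 genes, plotted as bases from the transcript start (0), with 1 grey bar for each window. CCAAT boxes (circles) lie mostly within 130 bases before the start. E2F letters (squares) also lie further off, at -192 in RRM2 and DCK and at -223 in RRM1, and past the start at 21 in DCK. No match lies in 5 windows.

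The libraries held 14665210 to 16482463 counts. NEUROD1, the targeted gene, had 418 and 414 CPM (counts per 1000000 counts of the library, after TMM scaling) in shControl against 63.6 and 58.1 CPM in shNeuroD1, giving a log2 fold change of -2.77 (SE 0.0504, adjusted p = 8.59e-29), so the labels held. It shares exon bases on the same strand with CERKL, whose reads may not be fully separable. CERKL itself had 813 and 864 counts in shControl against 221 and 236 counts in shNeuroD1. All 9 neuroblastoma markers examined had counts in every library, with MYCN at 1941 to 2021 CPM, although TH stayed under 6 CPM and DBH under 2 CPM. Of 7 markers of other cell types, the summed level was 35.0 and 38.4 CPM in shControl against 21.5 and 20.0 CPM in shNeuroD1. That sum was nearly all COL1A1, while CD3E was at 0 in every library, PECAM1 and COL1A2 had at most 3 counts, and EPCAM had 0 and 1 counts in shControl against 28 and 21 counts in shNeuroD1. Counts from mitochondrial genes amounted to 4.37% and 4.59% in shControl against 5.39% and 5.51% in shNeuroD1. The part of these differences in the results was not tested.

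RNA of 8 of the 9 supply enzymes was lower in the shNeuroD1 libraries. At an adjusted p under 0.05 by edgeR's quasi-likelihood test, 8 of the 9 members were lower and 0 were higher, where 28.2% of all genes tested were lower and 26.8% were higher. With a log2 fold change under -1 as well, 4 members were lower, TK1, RRM2, TYMS and RRM1, where 5.14% of all genes were. All 9 members were lower in both shNeuroD1 libraries than in both shControl libraries, as were 37.7% of all genes. The median log2 fold change was -0.68 over the members and 0.01 over all genes tested. Together the 9 genes summed to 1377 and 1376 CPM in shControl and to 730 and 710 CPM in shNeuroD1. In bulk RNA, fewer cells of a type and less RNA per cell cannot be told apart, and this holds for each value given here.

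**Figure D2:**
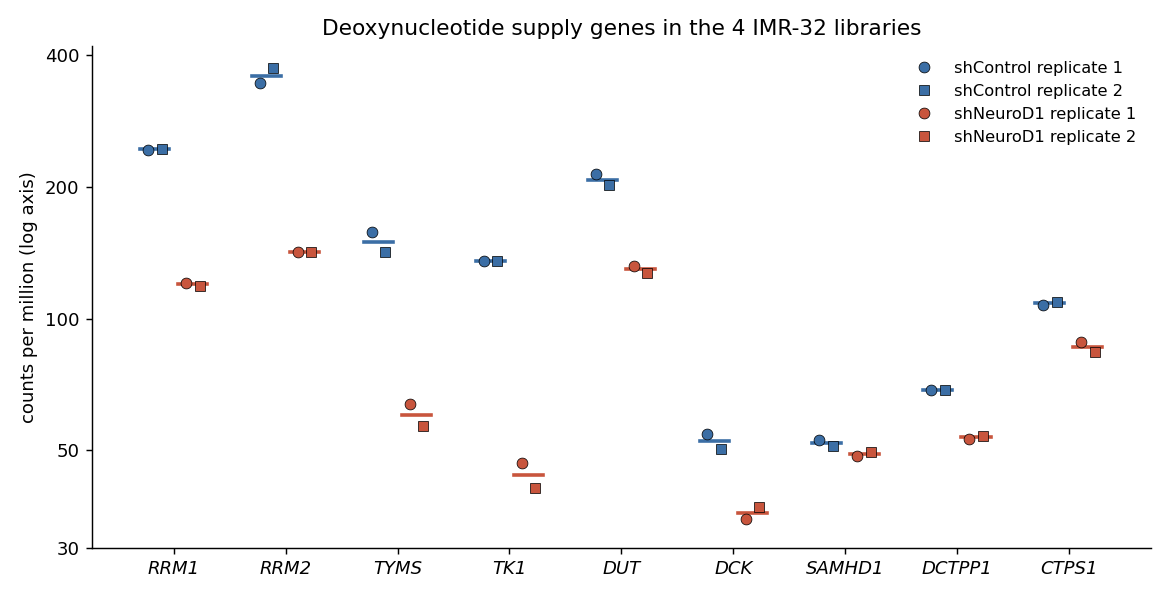
Level of each supply gene in each library, in CPM on a log axis, with circles and squares for replicates 1 and 2 and a short line at the group mean. Each shNeuroD1 point lies below both shControl points of its gene, by the widest margin in TK1, RRM2 and TYMS and by the narrowest in SAMHD1.

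Both subunits of ribonucleotide reductase fell. RRM1 (ENSG00000167325, chr11:4094707-4138876, plus strand) had 3581 and 3887 counts, or 243 and 244 CPM, in shControl against 1843 and 1808 counts, or 121 and 119 CPM, in shNeuroD1. The shNeuroD1 mean was 49.2% of the shControl mean, with a log2 fold change of -1.02 (SE 0.0457, adjusted p = 9.13e-19). Its 95% interval ran from -1.12 to -0.93 and so included -1. RRM2 (ENSG00000171848, chr2:10120698-10131419, plus strand) had 5091 and 5924 counts, or 345 and 372 CPM, in shControl against 2162 and 2167 counts, or 142 and 142 CPM, in shNeuroD1. Its mean fell to 39.6%, a log2 fold change of -1.34 (SE 0.0464, adjusted p = 1.33e-21), and the shNeuroD1 pair was almost identical.

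In the counts scaled to transcript length, RRM2 stood above RRM1 in each library. The ratio of their levels, in CPM per kilobase of the principal coding transcript, was 1.28 and 1.37 in shControl against 1.05 and 1.08 in shNeuroD1. In the counts, the subunits thus came closer to equal RNA levels. The deposited FPKM values, described below, differed: in shNeuroD1, RRM2 had 11.5 and 31.3 FPKM where RRM1 had 15.2 and 14.7. In shControl, RRM2 had 62.3 and 69.6 FPKM and RRM1 had 46.8 and 53.3. The alternative small subunit, RRM2B, which serves resting cells and the p53 response, had 42.3 and 45.7 CPM in shControl against 40.2 and 38.9 CPM in shNeuroD1. Its log2 fold change was -0.15 (SE 0.0717, 95% interval -0.30 to -0.01), and with an adjusted p of 0.0683 it did not pass. Per length, RRM2 exceeded RRM2B by a ratio of 11.7 in both shControl libraries and of 5.07 and 5.24 in shNeuroD1. Such ratios were not tested: with 2 libraries against 2, the smallest p of a two-sided exact permutation test is 0.333.

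All 3 members of the thymidylate branch fell. TK1 (ENSG00000167900, chr17:78174075-78187233, minus strand) showed the deepest fall of the members in the counts, though not in FPKM, from 2003 and 2151 counts to 713 and 628, or from 136 and 135 CPM to 46.8 and 41.2 CPM. The shNeuroD1 mean was 32.5% of shControl, a log2 fold change of -1.62 (SE 0.0596, adjusted p = 5.6e-21), and 1.85% of all genes tested had a lower value. TYMS (ENSG00000176890, chr18:657604-673578, plus strand) had 2327 and 2258 counts, or 158 and 142 CPM, in shControl against 971 and 867 counts, or 63.7 and 56.8 CPM, in shNeuroD1. Its log2 fold change was -1.31 (SE 0.0597, adjusted p = 1.53e-18), with both groups spread more than those of RRM1 but far apart.

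DUT (ENSG00000128951, chr15:48331011-48343373, plus strand) fell less than its pathway partners. It had 3151 and 3214 counts, or 213 and 202 CPM, in shControl against 2014 and 1937 counts, or 132 and 127 CPM, in shNeuroD1. Its change on the log2 scale was -0.68 (SE 0.0473, adjusted p = 7.57e-14), and its 95% interval, -0.78 to -0.58, lay apart from those of TYMS (-1.43 to -1.19) and TK1 (-1.74 to -1.50). Per length, the ratio of DUT to TYMS was 1.05 and 1.10 in shControl against 1.61 and 1.73 in shNeuroD1. RNA of the enzyme that removes dUTP therefore stood higher relative to thymidylate synthase in both shNeuroD1 libraries.

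DCK (ENSG00000156136, chr4:70992538-71030914, plus strand), the salvage kinase, had 804 and 803 counts, or 54.5 and 50.5 CPM, in shControl against 531 and 566 counts, or 34.8 and 37.1 CPM, in shNeuroD1. The groups did not overlap, and the log2 fold change was -0.54 (SE 0.0713, adjusted p = 9.27e-08). Because TK1 fell further, the ratio of DCK to TK1 per length was 0.241 and 0.224 in shControl against 0.446 and 0.540 in shNeuroD1.

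The hydrolases of the pool differed from each other. DCTPP1 (ENSG00000179958, chr16:30423619-30430075, minus strand), which hydrolyses dCTP and modified forms of it, had 1012 and 1093 counts, or 68.5 and 68.7 CPM, in shControl against 809 and 825 counts, or 53.1 and 54.1 CPM, in shNeuroD1. It fell by 0.36 on the log2 scale (SE 0.0603, adjusted p = 7.25e-06). SAMHD1 (ENSG00000101347, chr20:36889773-36951901, minus strand), the dNTP triphosphohydrolase known for restricting retroviruses in non-dividing cells, had 780 and 813 counts, or 52.8 and 51.1 CPM, in shControl against 742 and 759 counts, or 48.7 and 49.7 CPM, in shNeuroD1. Its log2 fold change was -0.08 (SE 0.0651, adjusted p = 0.325), with a 95% interval from -0.21 to 0.05. That interval lay apart from those of the 8 other members, but only narrowly from that of CTPS1 (-0.44 to -0.22). On the log2(FPKM + 1) scale, described below, SAMHD1 at -0.56 lay between DCTPP1 (-0.23) and CTPS1 (-0.68), so it was not apart there. Scaled by library size alone, the SAMHD1 value in the counts was 0.03 (adjusted p = 0.675), so its sign depended on the scaling. In the counts, the ratio of SAMHD1 to RRM2 RNA per length was 0.0992 and 0.0889 in shControl against 0.222 and 0.227 in shNeuroD1.

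CTPS1 (ENSG00000171793, chr1:40979335-41012565, plus strand), which makes CTP from UTP and is known for its role in proliferating lymphocytes, had 1585 and 1741 counts, or 107 and 109 CPM, in shControl against 1350 and 1283 counts, or 88.6 and 84.1 CPM, in shNeuroD1. It fell by 0.33 on the log2 scale (SE 0.0528, adjusted p = 3.3e-06), to 79.6% of shControl.

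The paralogs CTPS2, TK2 and, by little, DGUOK were higher, as were 26.8% of all genes tested. CTPS2, the second CTP synthase, had 36.6 and 42.1 CPM in shControl against 76.6 and 72.8 CPM in shNeuroD1, giving a log2 fold change of 0.92 (SE 0.0679, adjusted p = 3.02e-13). Per length, the ratio of CTPS1 to CTPS2 was 3.96 and 3.51 in shControl and 1.56 in both shNeuroD1 libraries. TK2, the mitochondrial thymidine kinase, had 9.89 and 8.24 CPM in shControl against 13.6 and 12.5 CPM in shNeuroD1, and rose by 0.53 (SE 0.138, adjusted p = 0.00162). The ratio of TK1 to TK2 per length was 43.1 and 51.6 in shControl against 10.8 and 10.4 in shNeuroD1. DGUOK, the mitochondrial deoxyguanosine kinase, had 101 and 90.8 CPM in shControl against 104 and 109 CPM in shNeuroD1. It rose by 0.15 (SE 0.0557, adjusted p = 0.0234), but the gap between the groups was smaller than the spread within shControl. The ratio of DCK to DGUOK was 0.227 and 0.234 in shControl against 0.141 and 0.143 in shNeuroD1. Scaled by library size alone, every log2 fold change shifted upwards together, with the median of all genes at 0.12.

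**Figure D3:**
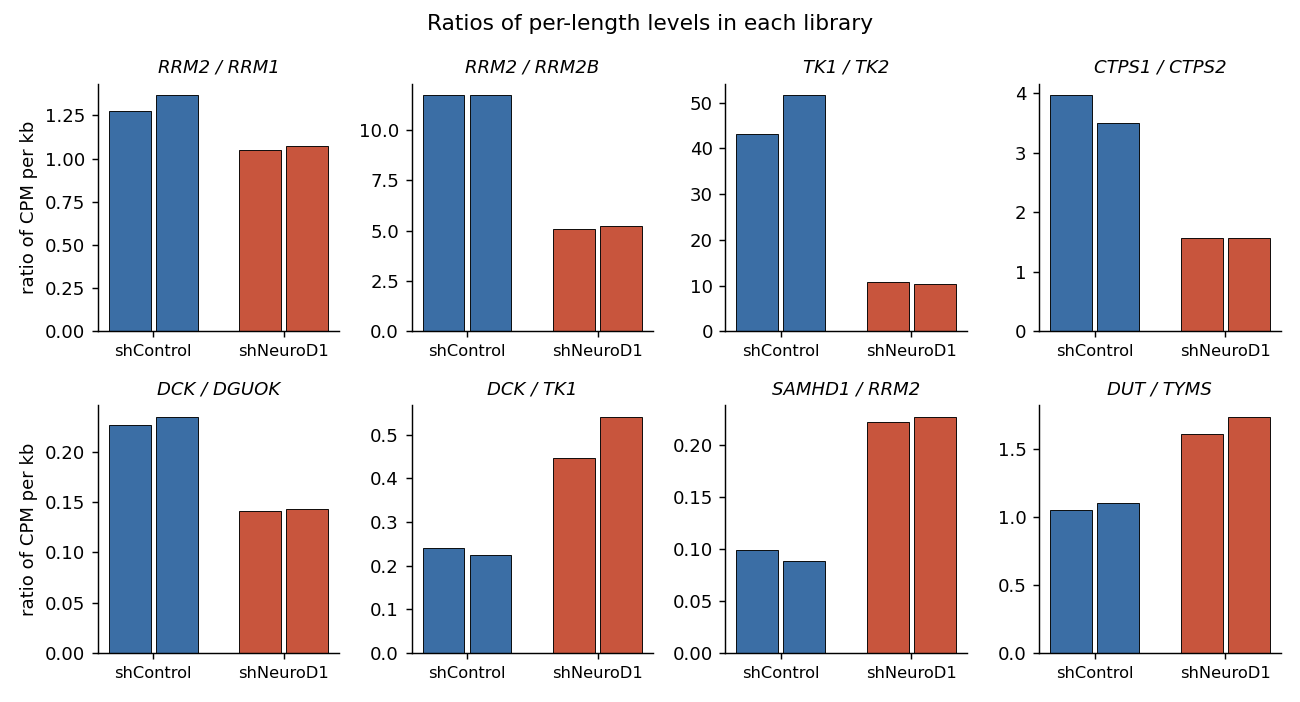
Ratios of length-scaled levels (CPM per kilobase) of pairs of genes, with 1 bar for each library, shControl in blue and shNeuroD1 in red, and replicate 1 on the left of each pair. In each panel both shNeuroD1 bars lie on the same side of both shControl bars, lower in the upper row and for DCK over DGUOK, and higher for DCK over TK1, SAMHD1 over RRM2 and DUT over TYMS.

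In the counts per length, the order of the members changed between the groups. In shControl, RRM2 was the most abundant at 105 ± 5.66 CPM per kilobase (SD, n = 2), then DUT at 96.8 ± 3.75, TYMS at 90.1 ± 6.67, TK1 at 83.2 ± 0.191, RRM1 at 79.1 ± 0.410, DCTPP1 at 56.2 ± 0.0990, CTPS1 at 33.9 ± 0.460, DCK at 19.3 ± 1.03 and SAMHD1 at 9.81 ± 0.230. The libraries of DUT and TYMS overlapped, and the gaps between RRM2, DUT, TYMS and TK1 were close in size to the SDs of the first 3. In shNeuroD1, DUT led at 60.3 ± 1.70 CPM per kilobase, before DCTPP1 at 43.8 ± 0.580, RRM2 at 41.4 ± 0.0424, RRM1 at 38.9 ± 0.559 and TYMS at 36.3 ± 2.93. RRM1 and TYMS differed by less than the SD of TYMS. TK1 at 27.0 ± 2.44 and CTPS1 at 27.0 ± 0.990 were not separable, and DCK at 13.2 ± 0.594 and SAMHD1 at 9.29 ± 0.142 came last in both groups. These levels take 1 principal transcript for each gene as its length, so a gene with shorter transcripts in use would stand higher. The deposited FPKM values gave another order, with TYMS leading in shControl at 107 and 86.5 FPKM. In shNeuroD1, TYMS at 43.2 and 38.3 FPKM was not separable from DUT at 43.2 and 38.6.

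Other genes around the pathway were examined as lists. Of 33 other deoxynucleotide genes, 32 were tested, as CDA had 0 counts in each library. In this list 15 were lower, 8 were higher and 9 did not pass, with a median log2 fold change of -0.21. Over all genes tested, 28.2% were lower and 26.8% were higher, so the number higher in this list lay near that share. The thymidylate cycle stood closest to the members, with 5 of 6 genes lower. SHMT2, the mitochondrial serine hydroxymethyltransferase, fell from 481 and 456 CPM to 156 and 146 CPM, a log2 fold change of -1.64 (SE 0.0459, adjusted p = 4.97e-24). MTHFD1, which supplies one-carbon folates, fell by 0.87 (SE 0.0473), and DTYMK, the kinase that turns dTMP into dTDP, fell by 0.76 (SE 0.0661). Among the genes that rose, CMPK2, a mitochondrial kinase, went from 27 and 33 counts to 106 and 101 counts (log2 fold change 1.79, SE 0.221). UPP1, uridine phosphorylase, rose by 0.93 (SE 0.316) on 22 and 20 counts against 35 and 45.

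Of 15 genes of upstream purine and pyrimidine synthesis, 9 were lower, 2 were higher and 4 did not pass, with a median of -0.26. The shares over all genes tested were 28.2% lower and 26.8% higher. PAICS, of the purine pathway, fell by 0.63 (SE 0.0410), IMPDH2, the first step towards GMP, fell by 0.45 (SE 0.0441), and PRPS1, which makes the ribose donor, fell by 0.38 (SE 0.0605). IMPDH1, the paralog of IMPDH2, rose by 0.67 (SE 0.0670). CAD, the first enzyme of pyrimidine synthesis, rose by 0.13 (SE 0.0483, adjusted p = 0.0187). It had 174 and 194 CPM in shControl against 202 and 202 CPM in shNeuroD1, a gap smaller than the spread within shControl. The 6 subunits of the MCM helicase, which unwinds DNA at replication forks, were all lower, with a median of -1.25. Of the 6, 5 were lower with a log2 fold change under -1, where 5.14% of all genes were. MCM3 and MCM5 both fell by 1.35 (SE 0.0450 and 0.0568), and MCM4 fell by 1.32 (SE 0.0448), close to the values of RRM2 and TYMS.

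**Figure D4:**
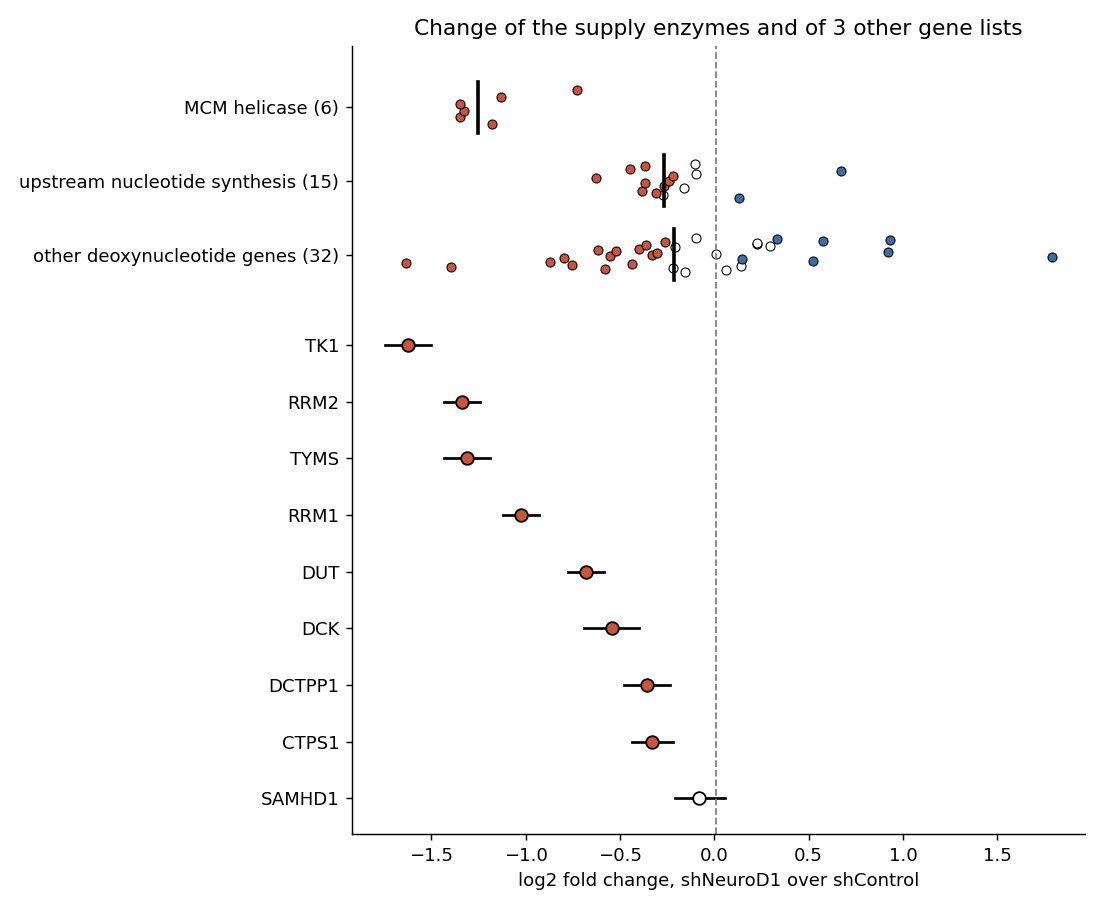
Log2 fold change of shNeuroD1 over shControl from edgeR, for each supply enzyme with its 95% interval and for single genes of 3 other lists, with a black bar at each list's median and a dashed line at the median of all genes tested (0.01). Red points were lower and blue points higher at an adjusted p under 0.05, and open points did not pass. The supply enzymes spread from -1.62 (TK1) to -0.08 (SAMHD1). Of the 6 MCM genes, 5 lie with the lowest of them, and MCM7 at -0.725 lies near DUT (-0.68).

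The genes whose pattern was most like the mean pattern of the members were looked for among 10546 other genes that averaged 10 CPM or more, by the Euclidean distance of centred log2 CPM over the 4 libraries. The nearest 5 were RAP1B (distance 0.0146), DANCR (0.0254), CDK4 (0.0265), MEX3B (0.0271) and DNMT1 (0.0275). Their log2 fold changes lay between -0.82 and -0.78. With 4 libraries, likeness of this kind amounts mainly to a similar fold change and a like order of the replicates.

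The authors also deposited FPKM values (fragments scaled for transcript length and sequencing depth) of transcript starts, ends and splicing events in assembled transcripts of the same libraries, so they are another reading of the same reads and no independent replicate. Summed over starts, RRM1 stood at 46.8 and 53.3 FPKM in shControl against 15.2 and 14.7 FPKM in shNeuroD1, and TYMS at 107 and 86.5 FPKM against 43.2 and 38.3. For RRM2 the shNeuroD1 libraries disagreed, with 11.5 and 31.3 FPKM against 62.3 and 69.6 in shControl, whereas their counts were 2162 and 2167. RRM2 shares 1077 exon bases with the same-strand gene AC007240.1, not analysed here. The listed start of TK1 had 0.192 to 0.429 FPKM, and its ends summed to 54.2 and 62.7 FPKM in shControl against 19.7 and 18.6 FPKM in shNeuroD1. SAMHD1 stood at 6.30 and 6.13 FPKM against 2.87 and 5.17, again with replicate 1 of shNeuroD1 apart from replicate 2. In limma on log2(FPKM + 1), 3 of the 8 members tested passed as lower, RRM1, TYMS and DUT. TK1 was left out, since its listed start averaged under 1 FPKM. RRM1 fell by 1.68 on that scale (adjusted p = 0.0227), further than in the counts. RRM2 (log2 fold change -1.73, adjusted p = 0.121), CTPS1 (-0.68, adjusted p = 0.0751), DCK (-0.31, adjusted p = 0.205) and DCTPP1 (-0.23, adjusted p = 0.218) did not pass on that scale. SAMHD1, at -0.56 (adjusted p = 0.259), did not pass either, with a larger change than in the counts. The DCK sum included a start at chr4:70902384, outside the gene, with 4.81 to 7.32 FPKM. With starts or ends limited to each gene, an alternative chosen after seeing the data, DCK stood at -0.57 (adjusted p = 0.062) and TK1 at -1.56 (adjusted p = 0.0204), where RRM2 at -1.73 and RRM1 at -1.68 were lower.

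Of 106 listed events of the members, none was at 1 FPKM or more in both libraries of a group and at 0 in both of the other. The transcript structures of DUT and CTPS1 are described because their parts moved unequally, a choice made after the values were seen. DUT is known to give a nuclear and a mitochondrial enzyme through different first exons. Which form each listed first exon belongs to was not tested, so the exons below are named by position alone. Transcripts with the first exon that begins at chr15:48331011 had 20.4 and 14.4 FPKM in shControl against 3.86 and 4.66 FPKM in shNeuroD1. Those with the next first exon, from 48331405, had 46.0 and 52.8 FPKM in shControl against 39.0 and 33.7 FPKM in shNeuroD1. The upstream exon thus made up 30.4% and 21.2% of DUT starts in shControl against 8.95% and 12.1% in shNeuroD1. All other listed starts of DUT summed to between 0.245 and 0.762 FPKM. The printed DUT site lies before the RefSeq start at 48332197 but inside a listed first exon, chr15:48332103-48332406, with 0.150 to 0.678 FPKM, and the windows of the upstream starts held no match to the motifs searched.

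In CTPS1, an intron at chr1:40996068-40997394 was listed both as retained and as removed. Its retained form had 3.65 and 3.88 FPKM in shControl against 3.44 and 2.94 FPKM in shNeuroD1, while the spliced form had 18.3 and 14.3 FPKM in shControl against 8.13 and 10.04 FPKM in shNeuroD1. The retained share was 16.6% and 21.4% in shControl against 29.8% and 22.6% in shNeuroD1. The higher share lay in both shNeuroD1 libraries, but the gap between 21.4% and 22.6% was smaller than the spread within either group.

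**Figure D5:**
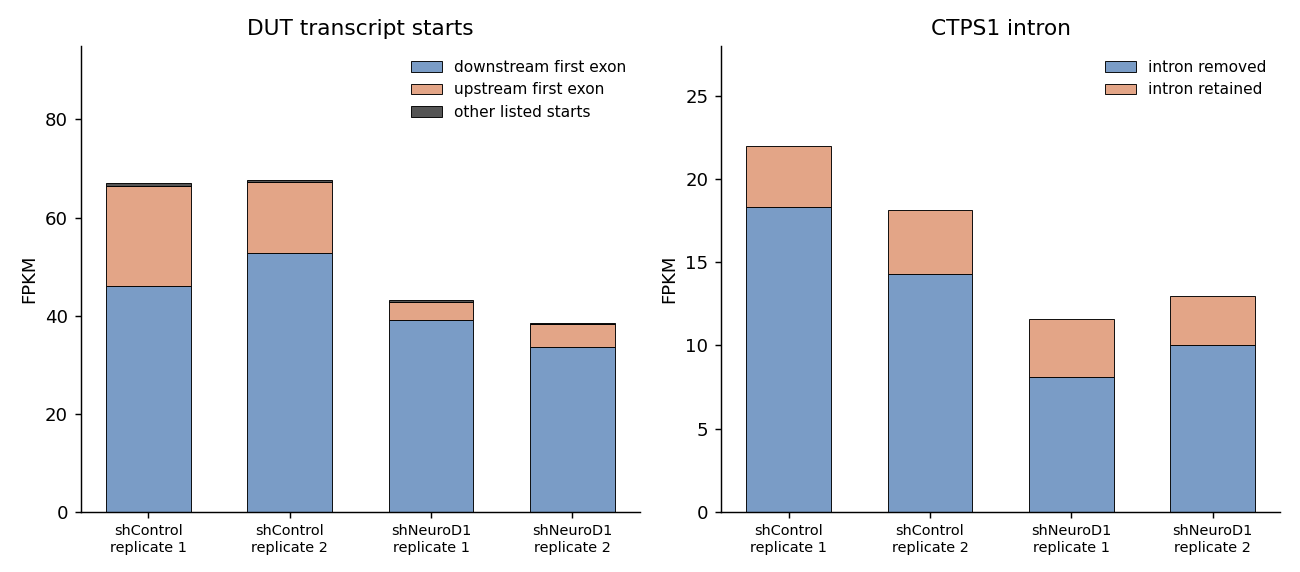
Left, FPKM of DUT transcript starts in each library, stacked by first exon. Right, FPKM of the forms of CTPS1 with an intron removed or retained. The upstream first exon of DUT falls from 20.4 and 14.4 FPKM in shControl to 3.86 and 4.66 FPKM in shNeuroD1, and the retained form of CTPS1 stays between 2.94 and 3.88 FPKM.

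Where genes overlap, some member counts may have gained or lost reads, since the use of strand in counting was not given in the sources used here. TYMS shares 967 exon bases with ENOSF1 on the opposite strand, which had 1085 and 1112 counts in shControl against 773 and 822 in shNeuroD1. DUT shares 533 bases with the antisense gene AC023355.1, at 99 to 130 counts, and DCK shares 199 bases with MOB1B on the same strand, at 1041 to 1104 counts. DCTPP1 shares 666 bases with ZNF771, at 213 to 228 counts, and SAMHD1 shares 1159 bases with TLDC2, at 2 to 4 counts. Pseudogenes named after the members summed to at most 0.685% of the member's own count, reached in DUT.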

How the data were processed

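The authors deposited raw counts of paired-end reads per gene, made with HTSeq 0.6.1, and per library the FPKM of transcript starts, ends and splicing events, listed where above 0. The submitters' processing notes also name cutadapt 1.9.1, HISAT2 2.0.1, DESeq2 and hg38. The tool behind the FPKM values is not given in the sources used here.

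Groups and replicate numbers came from sample titles. Counts were tested with edgeR 4.0.16 (R 4.3.3) by the quasi-likelihood test after TMM scaling and filterByExpr (minimum count 10), with Benjamini-Hochberg adjustment over 17537 genes. DESeq2 1.42.0 and limma 3.58.1 on log2(FPKM + 1) or log2(FPKM + 0.1), for genes averaging 1 FPKM or more, were alternatives. Fold changes from limma are on the log2(FPKM + pseudocount) scale. The code was tested on simulated data. Coordinates are from GENCODE 29 (GRCh38), and promoter sequences from RefSeq (GRCh38.p14), where all 9 genes matched.

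The members and lists were chosen with earlier results of these data known. Named were NEUROD1, the members, 6 listed paralogs and partners, up to 3 genes per list and direction with the largest passing changes, and the 5 nearest profiles; 1 gene under this rule is not reported here.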

Additional observations from a re-analysis of the deposited data

How the results depend on the processing

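Outside the fits that left out a library, 85 log2 fold changes of the members and NEUROD1 were computed under 9 alternatives: 71 kept their direction and their side of the threshold, 13 no longer passed, all on FPKM, and 1 changed sign, SAMHD1 at 0.034 by library size alone. That scaling gave a member median of -0.57, 3 members lower with a log2 fold change under -1 (RRM1 stood at -0.91), and 3639 genes lower and 6114 higher, against 4939 and 4698. With DESeq2, the study's method, 8 members were lower, 4 of them under -1. Over all genes DESeq2 called 3775 lower (793 under -1) and 3194 higher (1117 above 1), fewer than edgeR. With limma on log2(FPKM + 1), 3 of 8 members were lower and 2 with a log2 fold change under -1. Over all genes 278 were lower (201 under -1) and 247 higher (187 above 1), against 902 and 1541 past those folds in the main edgeR fit. With log2(FPKM + 0.1), 2 of 8 members were lower, both under -1, and DUT, at -0.72, no longer passed (adjusted p = 0.0534). Over all genes 257 were lower (206 under -1) and 206 higher (174 above 1). With FPKM over starts or ends in the gene, an alternative chosen after seeing the data, 4 of 9 members were lower, with TK1 at -1.56, and over all genes 352 were lower (225 under -1) and 313 higher (216 above 1). FPKM fits tested 10083 or 9774 genes rather than 17537. Most of the 85 values came from refits of the same counts, in which no call changed, so the 71 do not measure agreement with FPKM. In the counts 8 of 9 members were lower, against 3 of 8, 2 of 8 and 4 of 9 in the FPKM fits. The cause of the lost calls was not tested.

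With the replicate block, 8 members were lower the member median was -0.68 and no call of a member changed, and over all genes 5000 were lower and 4748 higher. The main fit had no replicate block, since the study describes none. Deviations of same-numbered libraries correlated at 0.0186. In the 4 fits that each left out 1 library, where the lone library is assumed to vary like the other group, all 40 values kept direction and call, and the member median ran from -0.72 to -0.64.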
